A study of Mus musculus with 6 samples.

Results

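Wnt ligands, their Frizzled and LRP receptors and 2 families of secreted antagonists were measured in cerebellar tissue of 3 wild-type and 3 daDREAM mice. The members were chosen by gene symbol: every probe set that the platform annotation assigns to exactly 1 gene of the Wnt, Fzd, Sfrp and Dkk families, or to Lrp5 or Lrp6. That gave 76 of 45037 tested probe sets and 39 of 18193 genes, made up of 19 ligands, 12 receptors and 8 antagonists. Each gene is read from its brightest probe set (by the mean of the 6 arrays), and all its other probe sets are counted as well. Both groups are whole cerebellum, dissected and frozen, on Affymetrix Mouse Genome 430 2.0 arrays with 1 biological replicate per array. One group is labelled wild type, and the transgenic mice carry daDREAM, a mutant of the calcium-binding repressor DREAM that represses irrespective of calcium. The promoter that drives the transgene, the strain and the age of the mice are not given here. All values are log2 expression levels from RMA (robust multi-array average), and differences are daDREAM minus wild type.

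Wnt proteins are lipid-modified secreted ligands that bind the cysteine-rich domain of Frizzled receptors. With the co-receptors LRP5 or LRP6 they stabilise beta-catenin, which switches on target genes with TCF and LEF factors, and other Frizzled complexes act on cell polarity and calcium without beta-catenin. Secreted frizzled-related proteins (Sfrp) bind Wnts through a Frizzled-like domain, while most Dickkopf proteins (Dkk) bind LRP5 and LRP6. In the cerebellum, Wnt1 sets up the midbrain-hindbrain boundary of the embryo, and Wnt7a from granule cells remodels mossy fibre terminals.

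DREAM binds the DRE, a downstream regulatory element with the core GTCA, often placed after the transcription start. Promoters from RefSeq (GRCm38.p6), from 250 bases before to 50 bases after a start site, were found for 25 of the 39 genes. The sequences shown are those of the brightest ligand and of 2 bright receptors, with Fzd5 as the receptor that held most cores among the genes named by rule. Capitals mark GTCA, or TGAC where the core lies on the other strand, and these cannot overlap each other. Wnt7a lies at chr6:91411304-91411603, minus strand, Fzd1 at chr5:4758167-4758466, minus strand, Fzd7 at chr1:59481897-59482196, plus strand, and Fzd5 at chr1:64737701-64738000, minus strand, each printed 5′ to 3′ along the gene.
Wnt7a: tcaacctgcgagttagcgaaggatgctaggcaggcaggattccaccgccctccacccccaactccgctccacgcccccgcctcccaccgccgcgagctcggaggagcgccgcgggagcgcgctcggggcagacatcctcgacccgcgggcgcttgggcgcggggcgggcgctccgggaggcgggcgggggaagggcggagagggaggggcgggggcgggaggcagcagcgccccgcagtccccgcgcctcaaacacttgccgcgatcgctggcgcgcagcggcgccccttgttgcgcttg
Fzd1: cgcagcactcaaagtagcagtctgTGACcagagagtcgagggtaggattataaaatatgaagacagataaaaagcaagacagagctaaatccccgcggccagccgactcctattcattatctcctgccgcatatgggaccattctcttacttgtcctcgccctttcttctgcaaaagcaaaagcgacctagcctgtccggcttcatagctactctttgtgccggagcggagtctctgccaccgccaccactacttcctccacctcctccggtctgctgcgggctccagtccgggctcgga
Fzd7: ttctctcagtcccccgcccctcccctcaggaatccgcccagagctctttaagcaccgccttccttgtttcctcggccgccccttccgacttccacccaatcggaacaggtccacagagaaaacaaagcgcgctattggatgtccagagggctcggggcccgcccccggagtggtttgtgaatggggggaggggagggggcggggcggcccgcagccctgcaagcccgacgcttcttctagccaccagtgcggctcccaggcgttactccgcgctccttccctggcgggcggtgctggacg
Fzd5: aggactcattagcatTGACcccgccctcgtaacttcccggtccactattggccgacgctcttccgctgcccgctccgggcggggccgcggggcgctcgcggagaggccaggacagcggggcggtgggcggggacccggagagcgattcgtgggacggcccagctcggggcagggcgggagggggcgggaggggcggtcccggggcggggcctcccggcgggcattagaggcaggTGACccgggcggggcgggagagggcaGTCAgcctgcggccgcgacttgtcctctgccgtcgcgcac

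The Wnt7a and Fzd7 windows held no core, that of Fzd1 held 1 and that of Fzd5 held 3, with 1 of these in the last 50 bases. Over the 28 member promoters, which include alternative starts, 22 (78.6%) held at least 1 core, against 85.2% of all 32851 promoters of 300 bases. In the last 50 bases the shares were 17.9% and 27.2%. A match describes letters only, and binding of DREAM was not measured.

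None of the 76 member probe sets passed limma after Benjamini-Hochberg adjustment over all 45037 probe sets, where the share called was 0% and the smallest adjusted p of a member was 0.998. At an unadjusted p under 0.05 there was 1 member probe set, 1460187_at of Sfrp1, against 1.81% of all probe sets. At the gene level 0 of 39 members had genotypes that did not overlap, against 5.59% of all genes. Among the 76 probe sets 3 did not overlap, all higher in daDREAM, against 3.75% of all probe sets that were higher without overlap. Without daDREAM replicate 1, 11 of 76 member probe sets (14.5%) had an unadjusted p under 0.05, beside 16.1% of all probe sets, and 10 of 39 member genes (25.6%) did not overlap, beside 34.0% of all genes. Without wild-type replicate 1 or 2 the count of member genes without overlap was 2 (5.13%), beside 8.93% and 9.72% of all genes. It was 3 (7.69%) without wild-type replicate 3 or daDREAM replicate 3, beside 18.1% and 13.5% of all genes, and 0 without daDREAM replicate 2, beside 9.54%. In each of these fits the members' share without overlap was below that of all genes.

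Member genes were spread on both sides of 0. Of the 39 genes 22 were higher and 17 lower in daDREAM, with a median difference of 0.02, beside 51.2% higher and a median of 0.01 over all genes. The ligands had 9 genes higher and 10 lower with a median of -0.01. The receptors had 6 and 6 with a median of -0.04. The antagonists had 7 and 1 with a median of 0.08. Signs this near 0 moved with scaling: after centring the arrays on their medians, 18 of the 39 were higher, and renewed quantile normalization also gave 18. The 95% interval lay within 1 log2 unit, a 2-fold change, on both sides for 38 of the 39 genes, and the exception was Sfrp1.

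**Figure D1:**
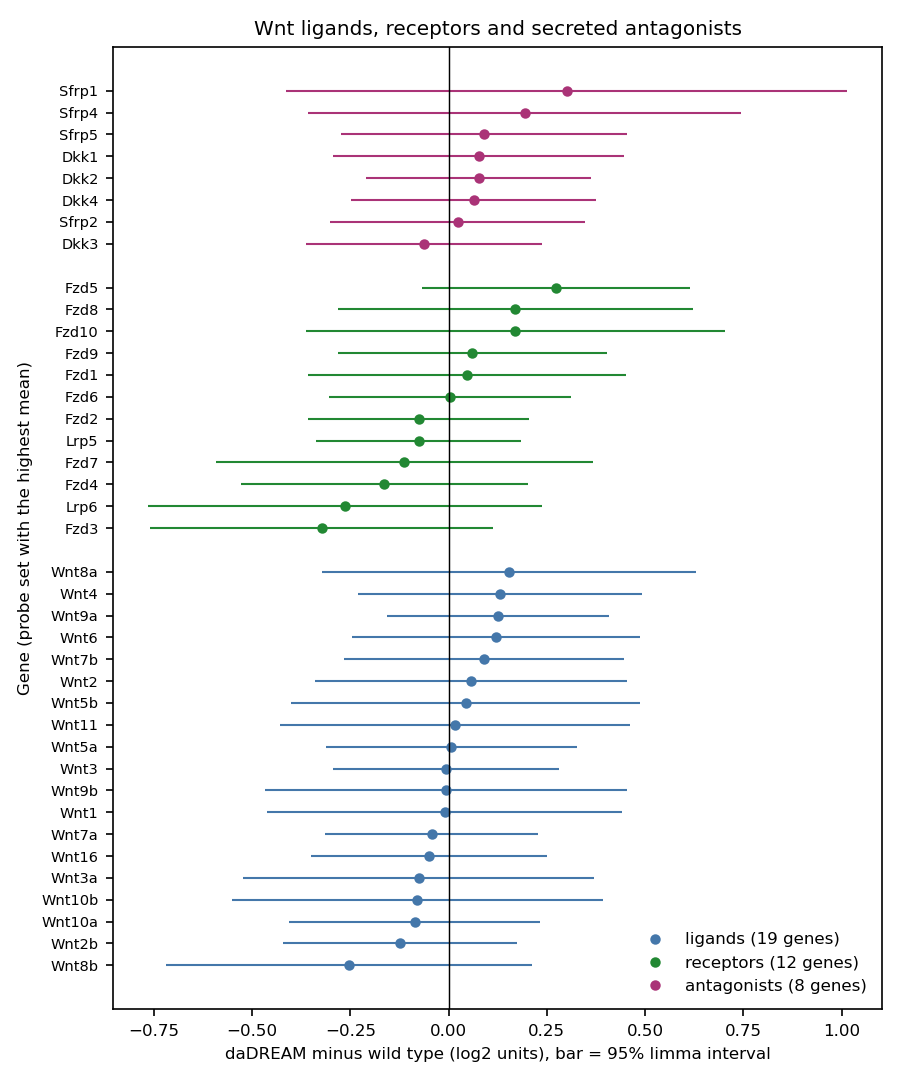
Difference between daDREAM and wild type (x axis, log2 units) for each of the 39 member genes (y axis), with points for the limma estimate and bars for its 95% interval. Every interval crosses 0, ligands run from -0.25 (Wnt8b) to 0.15 (Wnt8a), receptors from -0.32 (Fzd3) to 0.27 (Fzd5) and antagonists from -0.06 (Dkk3) to 0.30 (Sfrp1).

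The measured markers of cerebellar neurons had means of at least 7 in both groups, except Barhl1 at 6.65 in wild type and 6.93 in daDREAM. The granule cell list had 2 of 6 measured markers higher and 4 lower in daDREAM, from -0.16 (Zic2) to 0.28 (Barhl1), and its mean level ran from 10.32 to 10.38 in wild type and from 10.23 to 10.51 in daDREAM. The Purkinje cell list also had 2 of 6 higher and 4 lower, from -0.18 (Ppp1r17) to 0.07 (Slc1a6), with mean levels from 11.45 to 11.63 and from 11.47 to 11.58. The arrays had medians from 5.12 to 5.23 and interquartile ranges from 2.97 to 3.49 over all tested probe sets. The interquartile range was widest in daDREAM replicate 1 (3.49) and wild-type replicate 2 (3.38) and narrowest in daDREAM replicate 3 (2.97) and wild-type replicate 3 (3.10).

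Wnt7a, the synaptic ligand of granule cells, was the ligand with the brightest probe set. Its arrays read 8.35, 8.36 and 8.28 in wild type and 8.15, 8.38 and 8.33 in daDREAM. The genotypes overlapped, and the difference of -0.04 had a 95% interval from -0.31 to 0.23, or 0.804-fold to 1.17-fold (limma adjusted p = 0.998). Its 2 other probe sets differed by 0.12 and 0.01. The first of these, 1447647_at, ran from 6.68 to 7.32 in wild type and from 6.47 to 7.64 in daDREAM, a far wider spread than that of the brightest.

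Wnt8b, a ligand of the embryonic cortical hem, had the largest difference among the ligands. The wild-type arrays stood at 4.34, 4.44 and 4.92 and the daDREAM arrays at 4.00, 4.36 and 4.58. Overlap was wide, and the difference was -0.25 with an interval from -0.72 to 0.21 (limma adjusted p = 0.998). It was -0.37, -0.32 and -0.08 without wild-type replicates 1, 2 and 3, -0.10 without daDREAM replicate 1 and -0.39 without daDREAM replicate 3. A further fit took as covariate the level of the hybridization controls, RNA added to each array, which partly follows genotype. There the difference was -0.86 (limma adjusted p = 0.0829). The 2 other probe sets of Wnt8b differed by 0.06 and -0.15, so the signs of the gene's probe sets disagreed. Wnt8a, which acts in early embryos, read 4.19, 4.24 and 4.12 in wild type and 3.87, 4.41 and 4.73 in daDREAM. The daDREAM arrays lay on both sides of all wild-type arrays, and the difference was 0.15 (interval -0.32 to 0.63).

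The other 16 ligands differed by -0.12 (Wnt2b) to 0.13 (Wnt4). Wnt7b, which with Wnt7a builds the barrier properties of brain vessels, read 6.69 ± 0.12 in wild type against 6.78 ± 0.26 in daDREAM (SD, n = 3), a difference of 0.09. Wnt5a, the prototype of beta-catenin independent signalling, was covered by 4 probe sets that differed by -0.24 to 0.05. Wnt1, Wnt3 and Wnt3a differed by -0.01, -0.01 and -0.08, with the brightest probe sets at means of 4.00, 3.35 and 4.31 over the 6 arrays. Wnt4, best known from kidney and gonad, was level in wild type at 5.73, 5.74 and 5.75 and stood at 5.73, 6.20 and 5.68 in daDREAM. The difference of Wnt4 therefore came from daDREAM replicate 2. One further probe set of Wnt5b, 1439373_x_at, separated the genotypes: wild-type arrays at 3.88, 3.81 and 4.02 lay below daDREAM arrays at 4.09, 4.14 and 4.29. Its difference was 0.27 (interval -0.01 to 0.55), it was singled out after its values were seen, and the brighter probe set of Wnt5b differed by 0.04.

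**Figure D2:**
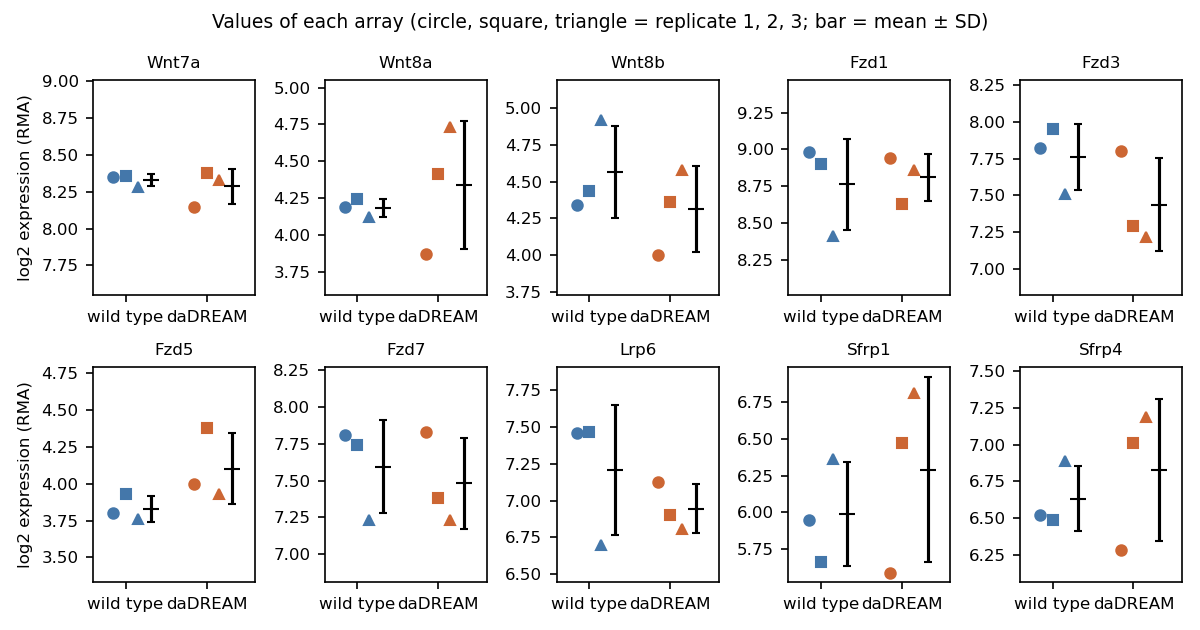
Log2 expression (y axis) of the 10 member genes chosen by the naming rule, with 1 symbol per array for wild type and daDREAM (x axis) and the mean ± SD of 3 arrays beside them; all panels span the same number of log2 units. The genotypes overlap in every panel, and in 5 of the 10, Wnt7a, Wnt8a, Wnt8b, Sfrp1 and Sfrp4, daDREAM replicate 1 (circle) is the lowest of the 6 arrays, at 8.15, 3.87, 4.00, 5.59 and 6.28.

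Among the receptors, Fzd1 had the brightest probe set. It read 8.98, 8.90 and 8.41 in wild type and 8.94, 8.63 and 8.86 in daDREAM. The difference of 0.05 (interval -0.36 to 0.45) was smaller than the SD of 0.31 within wild type, where replicate 3 was low. The other probe set of Fzd1 differed by 0.21. Fzd3, a receptor needed for axon guidance and planar polarity, had the largest difference of all members at the gene level. It stood at 7.82, 7.95 and 7.51 in wild type and at 7.80, 7.29 and 7.22 in daDREAM. The difference was -0.32, or 0.799-fold (interval -0.76 to 0.11; limma adjusted p = 0.998), and daDREAM replicate 1 lay among the wild-type arrays. Without daDREAM replicate 1 it was -0.51 and without daDREAM replicate 3 it was -0.22. The other 5 probe sets of Fzd3 differed by -0.07 to 0.26, and 3 of them were higher in daDREAM.

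Fzd7, a receptor linked to stem cells, read 7.81, 7.74 and 7.23 in wild type and 7.83, 7.38 and 7.23 in daDREAM. The order of its arrays resembled that of Fzd3 and Lrp6, with wild-type replicate 3 and daDREAM replicate 3 low, and the difference was -0.11 (interval -0.59 to 0.37). Its other probe set differed by 0.02. Fzd5, which acts in eye development, stood at 3.80, 3.93 and 3.76 in wild type and at 4.00, 4.38 and 3.93 in daDREAM. Its lowest daDREAM array equalled its highest wild-type array, and the difference was 0.27 (interval -0.07 to 0.61), or 0.14 without daDREAM replicate 2. A second probe set of Fzd5 differed by 0.01.

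Fzd4, the receptor of norrin in brain and retinal vessels, read 6.53 ± 0.01 in wild type against 6.37 ± 0.29 in daDREAM (SD, n = 3), a difference of -0.16, while its 2 other probe sets differed by 0.15 and 0.04. All 4 measured endothelial markers were lower in daDREAM, with Flt1 at -0.35 and Cldn5 at -0.18 and none past limma after adjustment. With the level of the hybridization controls, RNA added to each array, as a covariate, 2 were higher and 2 lower, and that control level partly follows genotype. The mean level of that marker list ran from 7.18 to 7.47 in wild type and from 7.14 to 7.25 in daDREAM, and its part in the Fzd4 value was not tested. In whole tissue, fewer cells of a type and less RNA per cell cannot be told apart. The remaining Frizzled genes differed by -0.08 (Fzd2) to 0.17 (Fzd8 and Fzd10), with Fzd6 at 0.00 and Fzd9 at 0.06.

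Of the co-receptors, Lrp6 gave values that depended on the probe set. Lrp6 read 7.46, 7.47 and 6.70 in wild type and 7.13, 6.90 and 6.81 in daDREAM at its brighter probe set, a difference of -0.26 (interval -0.76 to 0.24). That value was -0.52 without wild-type replicate 3, and -0.14 and -0.13 without wild-type replicates 1 and 2. At 1451022_at it read 5.38, 5.53 and 6.01 in wild type and 6.13, 6.04 and 5.69 in daDREAM, a difference of 0.31 (interval -0.13 to 0.76). The 2 probe sets of Lrp6 thus had opposite signs, and in both wild-type replicate 3 stood apart from the other wild-type arrays, low in one and high in the other. Lrp5 has 1 probe set, at 4.62 ± 0.07 in wild type and 4.55 ± 0.08 in daDREAM (SD, n = 3).

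All 9 probe sets of the Sfrp antagonists were higher in daDREAM, by 0.02 to 0.36, none passed limma after adjustment, and 8 were higher after median centring or renewed quantile normalization. With the hybridization control covariate, 3 of the 9 were higher and the median was -0.28. That covariate partly follows genotype, at 8.99 to 9.48 in wild type and 9.47 to 10.47 in daDREAM, so the fit cannot fully separate them. Over all probe sets 51.8% were higher, and the 9 stem from 4 genes, so they share transcripts and arrays. Sfrp1 has 5 of them. At its brightest, 1438620_x_at, the arrays read 5.95, 5.66 and 6.36 in wild type and 5.59, 6.47 and 6.81 in daDREAM. The difference was 0.30 (interval -0.41 to 1.01), with daDREAM replicate 1 the lowest array and daDREAM replicate 3 the highest. It was 0.65 without the former and 0.04 without the latter, 0.14 without wild-type replicate 2 and 0.49 without wild-type replicate 3.

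Separation of the genotypes appeared at 2 dimmer probe sets of Sfrp1. At 1460187_at the wild-type arrays read 3.31, 3.56 and 3.33 and the daDREAM arrays 3.73, 3.81 and 3.75, a difference of 0.36 or 1.29-fold (interval 0.09 to 0.64; limma adjusted p = 0.998). At 1428136_at they read 4.76, 5.08 and 5.07 against 5.38, 5.10 and 5.28, a difference of 0.28 (interval -0.04 to 0.61). The gap between genotypes at 1428136_at was set by arrays at 5.08 and 5.10. Probe set 1416594_at differed by 0.30 and 1448395_at by 0.14, with overlap in both. The arrays took different orders at the 5 probe sets: daDREAM replicate 1 was lowest of all at 1438620_x_at and highest of all at 1428136_at and 1448395_at. With the hybridization control covariate 3 of the 5 were higher and 1438620_x_at differed by -0.75 (limma adjusted p = 0.0885).

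**Figure D3:**
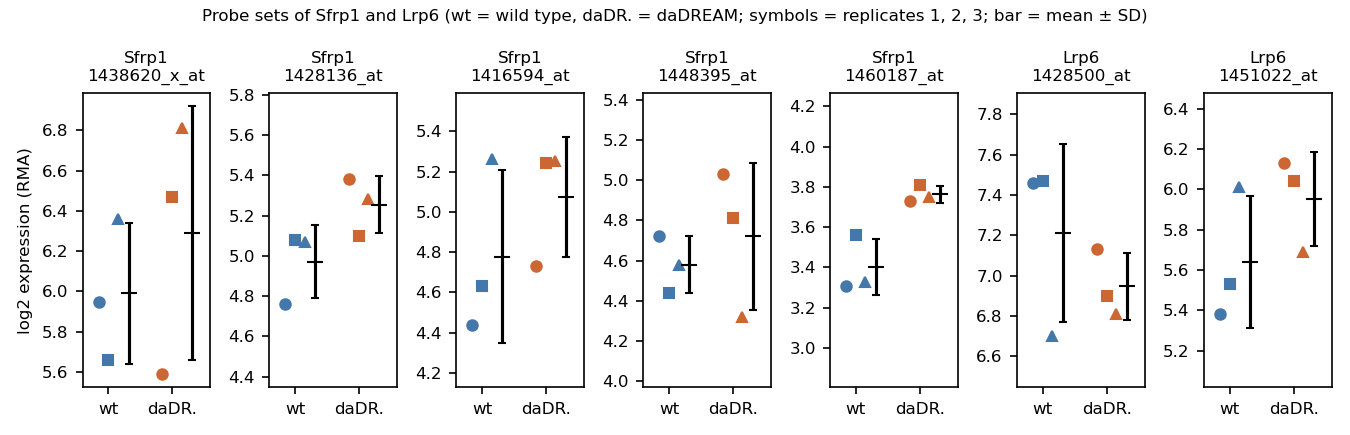
Log2 expression (y axis) at the 5 probe sets of Sfrp1 and the 2 of Lrp6, with 1 symbol per array and the mean ± SD of 3 arrays for wild type and daDREAM (x axis); all panels span the same number of log2 units. The Sfrp1 differences run from 0.14 to 0.36 and separate the genotypes at 1428136_at and 1460187_at, while Lrp6 differs by -0.26 and 0.31.

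Sfrp4 read 6.52, 6.49 and 6.89 in wild type and 6.28, 7.01 and 7.19 in daDREAM. Its daDREAM arrays enclosed the wild-type arrays, and the difference was 0.19 (interval -0.36 to 0.74). Left-out daDREAM replicates 1, 2 and 3 gave 0.47, 0.10 and 0.01, and left-out wild-type replicates 2 and 3 gave 0.12 and 0.32. Sfrp5 differed by 0.09 and 0.08 at its 2 probe sets and Sfrp2 by 0.02. Of the Dickkopf genes, Dkk1, the best studied inhibitor of LRP6, differed by 0.08 and 0.31 at its 2 probe sets, with the latter at 3.14, 3.07 and 3.14 in wild type and 3.33, 3.14 and 3.82 in daDREAM. Its daDREAM replicate 2 equalled the highest wild-type array. Dkk2 and Dkk4 differed by 0.08 and 0.06. Dkk3, a divergent member of the family, differed by -0.06 and -0.05 at its 2 probe sets and was the antagonist with the opposite sign.

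Choroid plexus markers, from the epithelium behind cerebrospinal fluid, were recorded beside the antagonists. All 9 of 9 measured markers were higher in daDREAM, by 0.13 to 1.07, and 6 of them did not overlap, beside 5.59% of all genes. The mean level of that list ran from 5.89 to 6.13 in wild type and from 6.32 to 6.60 in daDREAM, and no marker is listed at 0. The meningeal fibroblast markers had 5 of 6 higher, with Igf2 at 0.32, and the mean level of the list ran from 6.77 to 6.79 in wild type and from 6.87 to 6.93 in daDREAM. The microglia markers were recorded too, with 5 of 5 higher by 0.05 (C1qa) to 0.32 (C1qc), and list means from 5.93 to 6.07 in wild type and from 6.14 to 6.26 in daDREAM. The ependyma markers had 4 of 5 higher and Tmem212 equal, with list means from 5.20 to 5.41 and from 5.31 to 5.59, which overlapped. With the hybridization control covariate 9 of 9 choroid plexus, 4 of 6 meningeal, 5 of 5 microglia and 2 of 5 ependyma markers were higher. None of the 4 lists had a gene past limma after adjustment, and their part in the Sfrp values was not tested.

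Probe sets of 1 gene often disagreed. Of the 39 members 16 had 1 probe set and 23 had several. Of these 23, 11 had all probe sets higher in daDREAM, 1 had all lower, namely Dkk3, and 11 held both signs. The genes with all probe sets higher included Sfrp1, Sfrp5, Fzd1, Wnt4, Wnt6, Wnt7b and Wnt9a. Wnt6 differed by 0.12 at its brightest probe set and by 0.36 at 1435980_x_at, where daDREAM replicate 2 at 5.85 stood apart from values of 4.62 to 5.04 on the other 5 arrays.

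The order of the arrays within the members differed with brightness. Averaged over the 20 member genes with a mean below 5, daDREAM replicate 1 lay 0.21 below the gene means and daDREAM replicate 3 lay 0.15 above them, although both carry the transgene. Over the 5 genes with a mean of at least 7 (Wnt7a, Fzd1, Fzd3, Fzd7 and Lrp6), wild-type replicates 1 and 2 both lay 0.22 above the gene means and wild-type replicate 3 lay 0.24 below them. Over all genes of these 2 brightness classes the deviations had the same signs on every array: -0.14 in daDREAM replicate 1 and 0.15 in daDREAM replicate 3 for dim genes, and 0.04, 0.08 and -0.06 in wild-type replicates 1, 2 and 3 for bright ones. Arrays with a wide interquartile range were those on which dim members read low. Among bright members 1 of 5 was higher in daDREAM, beside 38.8% of all genes with a mean of at least 7. Among those with a mean of at least 5 and below 7 it was 10 of 14, beside 55.6% of all genes in that class. Below a mean of 5 it was 11 of 20, beside 61.2%.

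**Figure D4:**
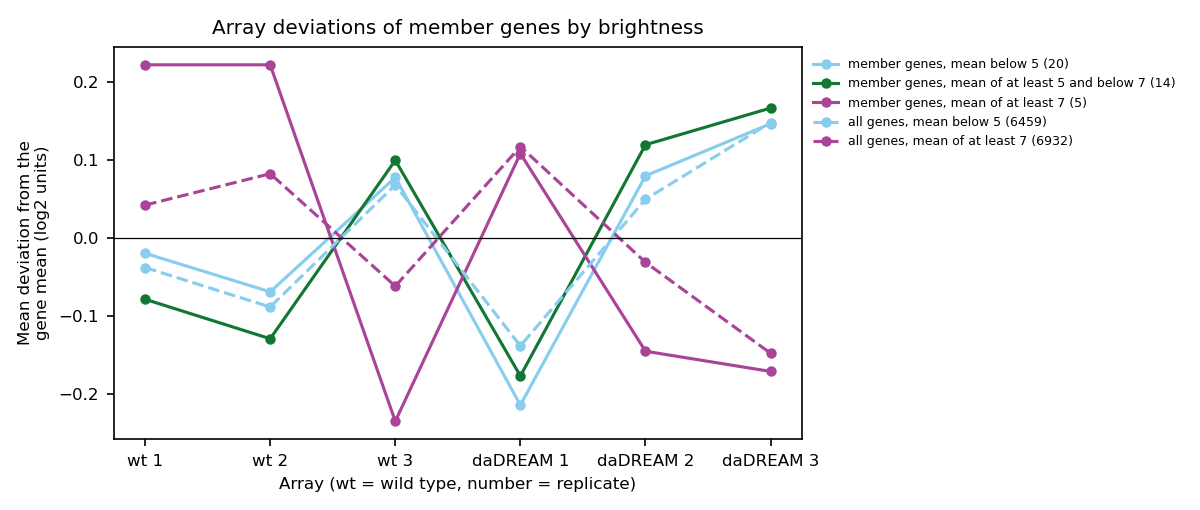
Mean deviation of genes from their own mean over the 6 arrays (y axis, log2 units) on each array (x axis), for member genes (solid lines) and all genes (dashed lines) by mean log2 level, with the number of genes in brackets. Dim members read low in daDREAM replicate 1 (-0.21) and high in daDREAM replicate 3 (0.15), bright members change sign between wild-type replicates 2 (0.22) and 3 (-0.24), and the dashed lines have the same signs.

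The daDREAM arrays varied more among themselves than the wild-type arrays. The SD was larger in daDREAM at 51 of 76 member probe sets (67.1%), beside 69.7% of all probe sets, and the median SD over the members was 0.14 in wild type and 0.21 in daDREAM. daDREAM replicate 1 was the single lowest array at 36 of the 76 member probe sets (47.4%), beside 25.9% of all probe sets. These shares move with brightness, and 60.5% of the member probe sets have a mean below 5, beside 47.3% of all. Below a mean of 5 the share was 45.7% of the members beside 38.4% of all probe sets, and from 5 to below 7 it was 14 of 25 members beside 22.6% of all. At the gene level daDREAM replicate 1 was lowest for 14 of 19 ligands, 7 of 8 antagonists and 2 of 12 receptors, beside 25.3% of all genes. In these classes 14, 4 and 2 genes have a mean below 5. Below a mean of 5 it was lowest for 13 of 20 member genes, beside 45.0% of all such genes. From 5 to below 7 it was lowest for 9 of 14, beside 26.3%, and from 7 for 1 of 5, beside 6.30%. daDREAM replicate 3 was the single highest array at 30 of the 76 (39.5%), beside 28.0% of all, and below a mean of 5 at 39.1% beside 39.4%. After renewed quantile normalization of the arrays, the shares for daDREAM replicate 1 were 38.2% of the members and 23.0% of all probe sets.

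The rest of the pathway was measured as lists set by role. None of their genes passed limma after adjustment over all probe sets. Genes for Wnt secretion and the R-spondins, which sustain Frizzled at the cell surface, had 4 of 11 higher and a median of -0.03. Their smallest unadjusted p-values belonged to Rspo4, at 0.27 (interval -0.05 to 0.58), and Rspo1, at -0.20 (interval -0.50 to 0.10), both dim at means of 4.28 and 3.11.

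Antagonists outside the families chosen had 4 of 10 measured genes higher and a median of -0.02. Sostdc1, an LRP-binding antagonist that is also a marker of the choroid plexus list, stood apart at 1.07 (interval 0.55 to 1.59, limma adjusted p = 0.998). Its second probe set differed by 0.49, and the genotypes did not overlap at either probe set. Notum, a secreted enzyme that removes the lipid of Wnts, read 4.83, 4.66 and 4.81 in wild type and 4.95, 5.10 and 5.15 in daDREAM. All its daDREAM arrays were higher, with a difference of 0.30 (interval 0.02 to 0.58; limma adjusted p = 0.998). Frzb, the frizzled-related gene whose symbol falls outside the Sfrp family name, differed by -0.07 (interval -0.44 to 0.31), and Wif1, which binds Wnts directly, by -0.02.

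Inside the cell, 9 of 23 beta-catenin pathway genes were higher and the median was -0.02. Ctnnb1, which encodes beta-catenin, differed by -0.08 (interval -0.40 to 0.24). Gsk3b, the kinase that marks beta-catenin for degradation, read 9.51, 9.44 and 9.38 in wild type and 9.62, 9.71 and 9.59 in daDREAM at its brightest probe set, a difference of 0.20 without overlap (interval -0.06 to 0.45). The other 5 probe sets of Gsk3b all had the opposite sign, from -0.29 to -0.02, and 1 of them, at -0.25 (interval -0.52 to 0.02), was also without overlap. Axin2, a scaffold of the destruction complex and a feedback target of beta-catenin, read 7.53, 7.57 and 7.50 in wild type and 7.29, 7.36 and 7.44 in daDREAM. Its difference of -0.17 (interval -0.42 to 0.08) was without overlap, and its dimmer probe set differed by 0.28 with overlap.

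Of the 13 measured feedback targets of beta-catenin, 6 were higher, 6 lower and 1 equal, and the median was 0.00. Notum and Axin2 had the smallest unadjusted p-values of this list and opposite signs. Lgr5, an R-spondin receptor, differed by -0.27 (interval -0.81 to 0.27), Ccnd1, a cell cycle cyclin, by 0.03 and Tnfrsf19, a receptor of the tumour necrosis factor family, by -0.00. Receptors and polarity genes that act without beta-catenin had 7 of 13 higher and a median of 0.04. Ror2, a tyrosine kinase receptor of Wnt5a, read 4.24, 4.23 and 4.25 in wild type and 4.35, 4.40 and 4.52 in daDREAM, a difference of 0.18 (interval -0.07 to 0.44), and its other probe set differed by 0.08. Celsr1, a polarity cadherin, differed by 0.21 (interval -0.08 to 0.50) at a mean of 3.68.

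**Figure D5:**
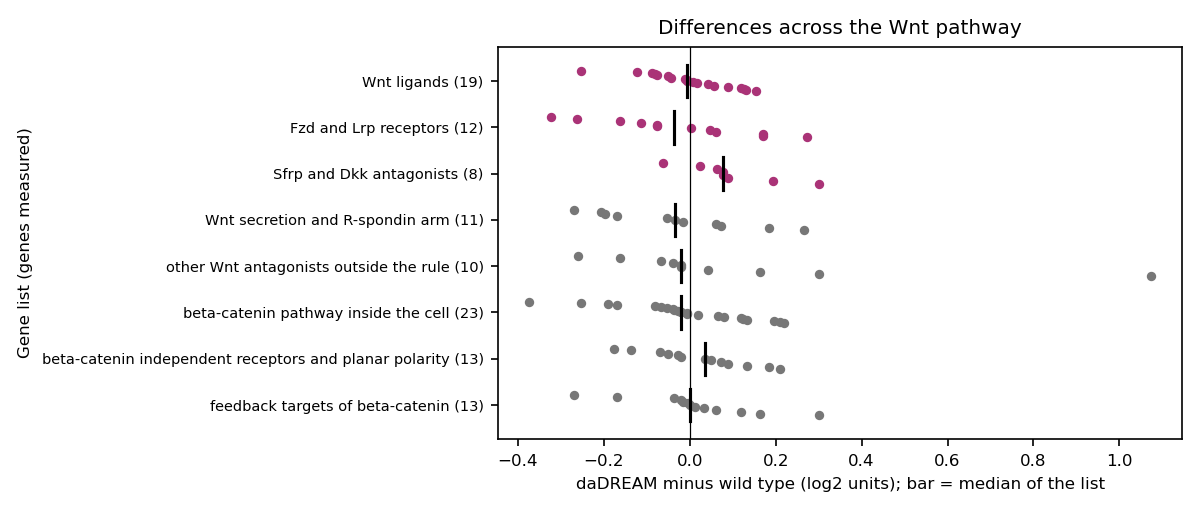
Difference between daDREAM and wild type (x axis, log2 units) for each gene of the member families (coloured points) and of the other pathway lists (grey points), with the number of genes measured in brackets and a bar at each median. List medians lie between -0.04 and 0.08, and the point far to the right is Sostdc1 at 1.07.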

How the data were processed

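Total RNA of frozen cerebellum was hybridised to 6 arrays, 3 per genotype, and sample titles gave genotype and replicate number. Log2 values, 1 per probe set and array, were deposited by the authors and made with RMA in the affy package per the submitters' processing notes (versions not given in the sources used here). RMA equalises the probe distributions of the arrays and compresses differences of dim probe sets, and the values carry no detection call, so brightness is no measure of abundance between probe sets. After removal of 64 controls, 45037 probe sets were fitted in R 4.3.3 by limma 3.58.1 (eBayes after lmFit, 2-sided, Benjamini-Hochberg over all, threshold 0.05), with 95% intervals. The procedure was also run on simulated data with independent noise and added changes larger than any member difference. That run does not bear on changes of the size seen here. Precision is limited by how few arrays there are; member probe sets had a median standard error of 0.15. P-values set each difference against the spread between these mice, with variances that borrow from all probe sets. The 18 hybridization control probe sets gave the covariate of 1 alternative.

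All 39 symbols matched RefSeq (GRCm38.p6) through the entrez identifiers. Values of all arrays are given for member genes with a mean of at least 7, an unadjusted p under 0.05 or no overlap, and for the 2 largest differences per class; in each pathway list the 2 genes with the smallest p are named. Other genes were named after their values were seen. Members, lists and tests were chosen with earlier results of these data known. Some genes of the pathway and marker lists were not analysed here.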

Additional observations from a re-analysis of the deposited data

How the results depend on the processing

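No member probe set and no gene of the pathway lists passed limma after adjustment in any of the 12 alternative fits. These covered the replicate number as a block, a robust trended variance prior, centring on array medians, renewed quantile normalization, a mean of at least 5, the hybridization control level as a covariate, and each array left out in turn. The smallest adjusted p of a member was 0.0829 with the covariate, reached at Wnt8b, and 0.223 without daDREAM replicate 1. With the covariate 20 of 76 member probe sets (26.3%) had an unadjusted limma p under 0.05, beside 23.2% of all probe sets. Deviations of same-numbered arrays correlated at 0.119, -0.281 and 0.323, and those of arrays with different numbers at -0.435 to 0.488. Deviations cancel out within a genotype, so these values cannot show whether replicate numbers pair the mice. With the replicate block 0 member probe sets passed, and the median difference of 0.02 could not change in this balanced design.

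The count of member genes without overlap was 2 after renewed quantile normalization (Wnt10a and Wnt2b, 5.13%, beside 8.32% of all genes). It was 0 to 10 with 1 array left out, beside 8.93% to 34.0% of all genes. With the brightest probe set that does not end in _s_at or _x_at it was 1 of 38 (Sfrp1). The share over all genes was not computed for that choice. With the covariate 3 of 19 ligands, 9 of 12 receptors and 1 of 8 antagonists were higher. The median member difference of 0.02 moved beyond the replicate SD of 0.12 with the covariate, to -0.28, and ran from -0.03 to 0.11 with 1 array left out. Of 117 refitted differences of the 10 named genes 106 kept their sign. The replicate block, the variance prior and the mean of at least 5 cannot change a difference, so those signs were fixed in advance. With the covariate the turned values were -0.38 for Wnt8a, 0.24 for Fzd3, 0.52 for Fzd7, 0.27 for Lrp6, -0.75 for Sfrp1 and -0.59 for Sfrp4. With 1 array left out, Wnt7a ran from -0.09 to 0.025 and Fzd1 from -0.13 to 0.16, Wnt8a from -0.043 to 0.39 and Fzd7 from -0.30 to 0.012. The signs turned without daDREAM replicate 1 for Wnt7a and for Fzd1 (-0.018), without wild-type replicate 3 for Fzd1, and without daDREAM replicate 3 for Wnt8a and Fzd7. The covariate partly follows genotype, at 8.99 to 9.48 in wild type and 9.47 to 10.47 in daDREAM, and the cause of these shifts was not tested.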

Other observations

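Further genes of the pathway lists separated the genotypes and were picked out after their values were seen. Cby1, an inhibitor of beta-catenin, read 7.42, 7.43 and 7.44 in wild type and 7.54, 7.61 and 7.54 in daDREAM, a difference of 0.13 (95% interval -0.11 to 0.38). Ryk, a Wnt receptor with an inactive kinase domain, differed by 0.07 and Dkkl1, a relative of the Dickkopf genes, by -0.26, both without overlap. Cby1, Ryk and Dkkl1 were read at their brightest probe sets only. None of these genes passed limma after adjustment (adjusted p = 0.998 for each). Without overlap, 2 genes were higher and 1 lower of the 10 other antagonists, and 2 and 1 of the 23 beta-catenin pathway genes. The counts were 2 and 0 of 13 beta-catenin independent genes, 1 and 1 of 13 feedback targets, and 0 of 11 secretion and R-spondin genes. The feedback genes Notum and Axin2 are counted in the other lists too. Over all genes 5.59% separated the genotypes.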
